A study of Zea mays with 18 samples.

Results

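The root library of maize seedlings after 4 days at low phosphate was set against the mean of the root libraries of days 0, 1 and 2 of the same course. Entries were taken where a miRNA reached at least 10 RPM, reads per 1000000 clean reads, in at least 1 of these 4 libraries, which gave 102 of the 207 listed entries. Entries of a family with the same value in every low-phosphate library were counted once, which left 82 distinct entries of 19 families, out of 156 distinct entries in all. Of the 82, 63 were guide strands and 19 were star strands, cut from the other side of the same hairpin and marked with an asterisk.

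The plants were seedlings of the inbred line Q319 grown in nutrient solution. The day 4, day 1 and day 2 plants had spent those days at 5 μM KH2PO4, while the day 0 plants came from the sufficient solution with 1000 μM KH2PO4. By the design text the solutions differed in phosphate and in KCl, not in copper. Each root time point is a single library of pooled root segments, 15 to 20 plants per biological repeat by the design text, so no day has a repeat. All 4 are labelled as roots of the 3-leaf stage, and a root library of day 8, labelled as the 4-leaf stage, is given beside them for its values only. A leaf library of each of the same days was also sequenced. In bulk tissue, fewer cells of a type and less RNA per cell cannot be told apart.

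Plant miRNAs are cut from hairpin precursors, and the guide strand directs cleavage or translational repression of matching transcripts. At low phosphate, miR399 is known to be made in large amounts and to repress PHO2, which restrains phosphate uptake and transport, and miR827 is known to target transcripts of SPX-domain proteins, among them vacuolar phosphate transporters in rice. The copper-associated families miR397, miR398, miR408 and miR528 target transcripts of copper proteins, and in Arabidopsis the first 3 of these are known to accumulate when copper is scarce.

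The day 4 library held 17483000 clean reads, and those of days 0, 1 and 2 held 16297000, 21385000 and 20490000, a depth recovered from the steps of the low values. A count of 0 then allows up to 0.172 RPM on day 4, and 0.140 to 0.184 RPM on the other 3 days. No entry of the 82 was blank or at 0 in any of the 4 root libraries. Of the 82, 67 reached 10 RPM in all 4 libraries, 9 reached it only on earlier days and 0 only on day 4. Just inside the threshold stood miR160a* with a highest value of 10.7 RPM and miR396a* with 11.6 RPM, and just outside it stood miR169k* with 9.90 RPM and miR169a with 8.32 RPM.

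On day 4 the copper-associated entries were low and miR827 was high, while most other miRNAs stayed near their earlier levels. An entry was counted as higher or lower on day 4 where its value lay outside the range of days 0, 1 and 2 and at least 2-fold from their mean, on the log2(RPM + 1) scale. By this rule 9 of the 82 entries were lower and 2 were higher. The 9 were all of the copper-associated entries among the 82, and the 2 were miR827 and miR827*. The 9 are not independent, since miR528a and miR528b, miR408 and miR408b, and miR398a and miR398b are near-identical and can share reads. Of the 9, miR398a, miR398b, miR408 and miR408b reached 10 RPM only on earlier days, so a low day 4 value was partly built into their choice. The other 5 reached it on day 4 too and had a median log2 difference of -1.53. Over the 125 entries of the table that reached at least 1 RPM in at least 2 of the 4 libraries, 7.2% were lower and 4.0% were higher by the same rule. The other 3 higher entries of the 125 were miR399e, miR399i and miR399j. The copper-associated miR397a and miR398b*, among the 125 but under 10 RPM, did not pass the rule. Both were below the earlier range on day 4, with log2 differences of -0.80 and -0.99. The median log2 difference was -1.53 for the 9 copper-associated entries, -0.11 for all 82 and -0.09 for all 125.

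Limma, fitted over those 125 entries, passed 0 higher and 0 lower entries at an adjusted p under 0.05 (0.0% each way), with 12 (9.6%) at an unadjusted p under 0.05. No other tool was run on this comparison. Of the 12, 11 were among the 82, namely the 9 copper-associated entries, miR827 and miR167h*, and the other was miR398b*. The fit takes the spread between the 3 earlier days as its error and assumes that the lone day 4 library varies like them, so its p-values compare 4 libraries and not repeated conditions. The call turned on day 0: without it limma passed 16 entries, 5 higher and 11 lower, among them miR827, miR827*, miR167h* and 8 of the 9 copper-associated entries, miR397b being the exception. Without day 0 the fit kept 1 residual degree of freedom. Its error then leaned further on the spread shared across entries than on that of the entry itself, so the 16 are not a firmer result. An exact permutation test of 1 library against 3 cannot give a p below 0.25.

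**Figure D1:**
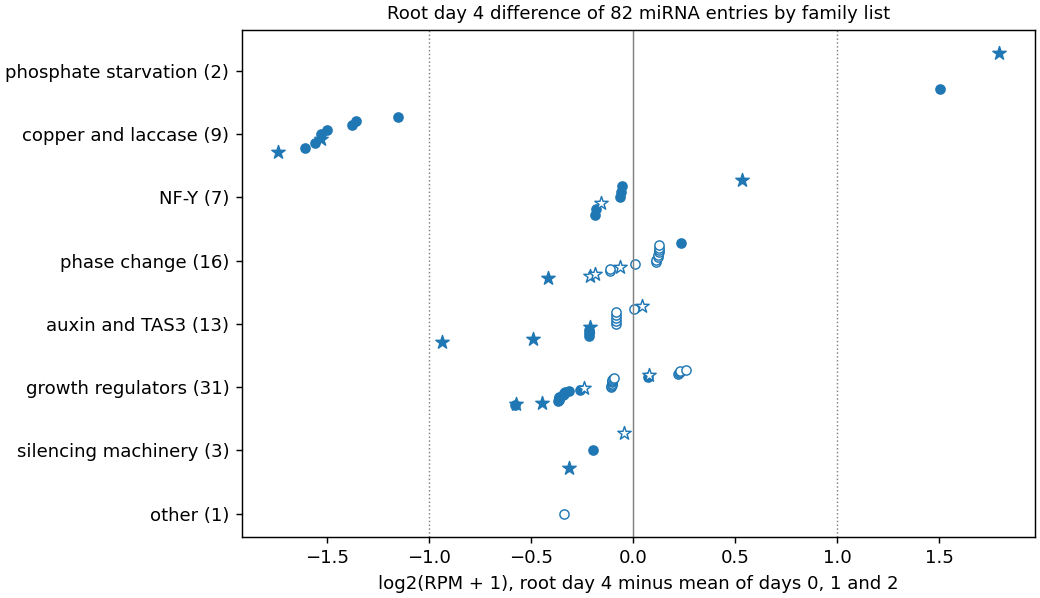
Each point is 1 of the 82 distinct entries, placed by its log2(RPM + 1) difference in root, day 4 minus the mean of days 0, 1 and 2, in rows by family list with the number of entries in brackets. Circles are guide strands, stars are star strands, filled symbols lie outside the range of days 0, 1 and 2, and dotted lines mark 2-fold. The 9 copper-associated entries lie below -1 and the 2 miR827 entries above 1.

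miR528, a grass miRNA whose known targets in rice and maize include transcripts of ascorbate oxidase and laccases, is the most abundant of the copper-associated families in these roots. miR528b had 7129 RPM on day 4, against 24046, 15842 and 21476 RPM on days 0, 1 and 2. The day 4 value lay below all 3 earlier ones, by 2.83-fold from their mean (log2 -1.499, SE 0.31, limma adjusted p = 0.156). miR528a, its near-identical partner, had 5443 RPM on day 4, against 18900, 12166 and 16824 RPM on days 0, 1 and 2 (log2 -1.53, SE 0.32, limma adjusted p = 0.156). Near-identical entries can share reads, so these 2 are not independent. Their star strands were scarce, with 0 reads on day 4 and 1.04, 0 and 0.488 RPM on days 0, 1 and 2 for both.

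miR408 targets transcripts of plantacyanins, small blue copper proteins, and of laccases. In these roots the strand listed as its star was the more abundant one. miR408b* had 102 RPM on day 4, against 471, 328 and 265 RPM on days 0, 1 and 2, the lowest log2 difference of the 82 (-1.74, SE 0.36, limma adjusted p = 0.156). miR408b had 7.49 RPM on day 4, against 33.9, 15.2 and 18.2 RPM on days 0, 1 and 2 (log2 -1.38, SE 0.50, limma adjusted p = 0.456). Both arms were below all earlier days. The ratio of star to guide was 13.7 on day 4, against 13.9, 21.6 and 14.6 on days 0, 1 and 2, so it lay just below its earlier range. miR408, near-identical to miR408b, rested on 133 reads on day 4 beside 131 for miR408b, and had a log2 difference of -1.36.

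miR397 targets laccases, the copper enzymes that polymerise lignin. miR397b* had 43.2 RPM on day 4, against 145, 97.4 and 144 RPM on days 0, 1 and 2 (log2 -1.53, SE 0.30, limma adjusted p = 0.156). Its guide strand miR397b had 14.1 RPM on day 4, against 44.2, 25.7 and 30.4 RPM on days 0, 1 and 2 (log2 -1.15, SE 0.36, limma adjusted p = 0.356). Day 4 was below the earlier days for both arms, and with day 0 left out miR397b was no longer 2-fold lower.

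miR398 targets copper/zinc superoxide dismutases and was the scarcest of these families. miR398a had 2.17 RPM on day 4, against 12.1, 5.19 and 10.2 RPM on days 0, 1 and 2 (log2 -1.61, SE 0.49, limma adjusted p = 0.356). The day 4 value rested on 38 reads, and its ratio to the 3 earlier libraries together was 0.245 (exact 95% binomial interval 0.171 to 0.341, for counting error only). The near-identical miR398b had 2.29 RPM on day 4, against 12.1, 5.19 and 10.2 RPM on days 0, 1 and 2. With a pseudocount of 5 in place of 1, miR398a (log2 -0.95), miR398b (log2 -0.93) and miR397b (log2 -0.98) were no longer 2-fold lower. The star strand miR398b*, which did not reach 10 RPM, had 1.20 RPM on day 4, against 3.87, 3.23 and 3.03 RPM on days 0, 1 and 2.

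The earlier days were not level for these families. Day 0 was the highest of the 3 earlier days in all 9 entries, and day 1 was the lowest in 8 of them, the exception being miR408b*. Measured from each of the 3 earlier days in turn, 4 of the 9 entries stayed at least 2-fold lower on day 4, namely miR528a, miR528b, miR397b* and miR408b*. From day 1 alone, miR398a was lower by a log2 difference of -0.96 and miR397b by -0.82.

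On day 8, 7 of the 9 entries were lower than on day 4. miR528b had 1632 RPM, miR408b* 35.9 RPM and miR397b 6.59 RPM on that day. The exceptions were the near-identical miR408 and miR408b, both at 10.9 RPM.

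**Figure D2:**
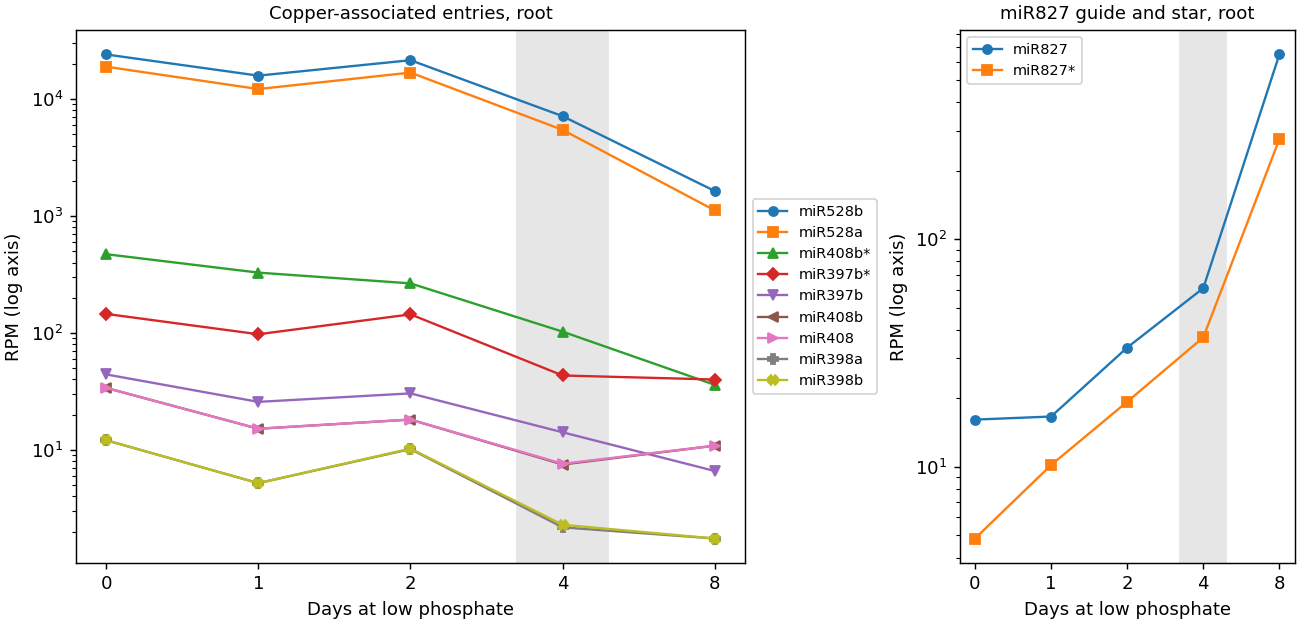
RPM on a log axis against days at low phosphate (0, 1, 2, 4 and 8, drawn at equal steps), 1 root library per point, for the 9 copper-associated entries (left) and miR827 with its star strand (right). The shaded band marks day 4, where every copper-associated entry lies below days 0, 1 and 2 and both miR827 strands lie above them; miR408 and miR408b overlap, as do miR398a and miR398b.

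Both strands of miR827 were highest on day 4 among the 4 libraries. miR827 had 61.0 RPM on day 4, against 16.1, 16.6 and 33.4 RPM on days 0, 1 and 2, or 2.84-fold from their mean (log2 1.505, SE 0.48, limma adjusted p = 0.356). miR827* had 37.1 RPM on day 4, against 4.85, 10.2 and 19.3 RPM on days 0, 1 and 2, or 3.46-fold (log2 1.79, SE 0.72, limma adjusted p = 0.502). Day 2 already stood above days 0 and 1 for both strands, and from day 2 alone the day 4 values were higher by log2 0.85 for miR827 and 0.91 for miR827*. The ratio of guide to star was 1.65 on day 4, against 3.33, 1.63 and 1.73 on days 0, 1 and 2. On day 8 miR827 had 648 RPM and miR827* had 275 RPM.

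No miR399 entry reached 10 RPM by day 4, so none is among the 82. miR399e had 5.03 RPM on day 4, against 0.184 and 2.00 RPM on days 0 and 2, and miR399i and miR399j had the same values on those days. The log2 difference of each was 1.68 (SE 0.65, limma adjusted p = 0.502). Their day 1 cells only repeat day 0 with no fold beside them and were treated as missing. These 3 fits thus rest on days 0 and 2 alone, with 1 residual degree of freedom. miR399b* had 3.03 RPM on day 4, against 0 reads on day 0. On day 8 miR399e had 30.8 RPM and miR399b* had 74.5 RPM, both over 10 RPM.

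Outside these families, 0 of 71 entries were past the fold rule, and their log2 differences ran from -0.94 to 0.53 with a median of -0.10. Of the 71, 40 lay inside the range of days 0, 1 and 2, 28 lay below it and 3 above it. Among the 28, miR160a*, miR171h*, miR396a* and miR156l* reached 10 RPM only on earlier days, so a low day 4 value was partly built into their choice. Over all 125 entries tested, 37.6% lay below that range and 15.2% above it. These small differences depended on the scaling. Median-ratio scaling moved the median of the 125 by 0.11, and 36 of the 71 then lay inside, 19 below and 16 above, with a median of 0.02. The 9 copper-associated entries were below the range under each scaling, with a median of -1.41 under the median-ratio one. Of the 82 entries, 67 were within 0.5 of the earlier mean on the log2 scale.

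The lowest of the 71 was miR167h*, from a hairpin of the family that targets auxin response factors. It had 39.5 RPM on day 4, against 73.0, 70.8 and 86.6 RPM on days 0, 1 and 2, which is 1.91-fold lower and so just short of the rule (log2 -0.94, SE 0.20, limma adjusted p = 0.156). The earlier days were close together, and on day 8 the entry had 167 RPM. Its guide strand miR167h had 1388 RPM on day 4, against 1732, 1285 and 1423 RPM on days 0, 1 and 2, inside the earlier range.

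The 3 of the 71 above the earlier range were miR169i*, miR156j and miR164e. miR169i*, from a hairpin of the family that targets NF-YA transcription factors, had 12.1 RPM on day 4, against 5.34, 9.35 and 10.3 RPM on days 0, 1 and 2 (log2 0.53, SE 0.40, limma adjusted p = 0.747). miR156j had 99.1 RPM on day 4, against 80.4, 89.9 and 81.99 RPM on days 0, 1 and 2. miR164e, of the family that targets NAC factors, had 2983 RPM on day 4, against 2878, 2802 and 2824 RPM. The gap of day 4 to the earlier days was small for miR156j and miR164e, with log2 differences of 0.24 and 0.07.

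Of the 10 most abundant entries of the root, miR528b alone was past the rule, and the others were miR168a and 8 entries of miR156. miR168a, which targets AGO1 of the silencing machinery, had 90971 RPM on day 4, against 111740, 103929 and 98042 RPM on days 0, 1 and 2 (log2 -0.20, SE 0.20, limma adjusted p = 0.81). The day 4 value was the lowest of the 4, though close to day 2. miR156a, which targets SPL factors that promote the adult phase, had 100925 RPM on day 4, against 81825, 104690 and 92704 RPM on days 0, 1 and 2. The 8 near-identical miR156 entries had log2 differences of 0.11 to 0.12, all inside their earlier range on the RPM scale.

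By family list, the phase-change list (miR156 and miR172, whose AP2-like targets delay flowering) had 16 entries with a median log2 difference of 0.11, 14 of them inside the earlier range, though 10 were above it under median-ratio scaling. The growth-regulator list had 31 entries with a median of -0.11, of which 16 were inside, 14 below and 1 above. Within it, the 4 miR159 entries, which target MYB factors, and the 5 miR171 guide entries, which target SCL factors, were all below the earlier range, with medians of -0.36 for miR159 and -0.34 for miR171. Both families stayed below it under median-ratio scaling, with medians of -0.24 for miR159 and -0.22 for miR171. Entries of 1 family can share reads. miR159a had 1399 RPM on day 4, against 1632, 1721 and 2083 RPM on days 0, 1 and 2. miR166a, which targets HD-ZIP III factors, had 14915 RPM on day 4, against 19320, 10933 and 19534 RPM, and 8 of 9 miR166 guide entries were inside the range.

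The auxin and TAS3 list (miR160, miR167 and miR390) had 13 entries with a median of -0.08, 7 inside and 6 below, and a median of 0.04 with 11 inside under median-ratio scaling. The NF-Y list had 7 entries with a median of -0.06, 1 above, 1 inside and 5 below, and its 5 guide entries, at -0.19 to -0.05, were all below. Under median-ratio scaling all 5 were inside. The silencing-machinery list had 3 entries, all of miR168, with a median of -0.20, and the sulfate list (miR395) had 0 entries at 10 RPM. The 19 star strands had a median of -0.21, with 1 higher and 2 lower by the rule. The lists were chosen with earlier results of these data known, and no list was tested as a set.

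Most entries were higher on day 8 than on day 4 on the RPM scale, 79 of the 125 tested and 50 of the 71. Of the 28 entries below the earlier range on day 4 outside the copper-associated families, 23 were, a count that leans on the low day 4 values that chose these 28, and 19 were above the highest of days 0, 1 and 2. miR159a had 2514 RPM on day 8 and miR168a 137338 RPM. All 5 miR169 guide entries were lower on day 8 than on day 4.

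Leaf gave a second look at the same days with separate libraries. By the same rule 6 of the 9 copper-associated entries were lower in leaf on day 4, and 0 of the 9 were higher. Over 127 leaf entries, 7.09% were lower and 11.8% were higher by that rule. The median leaf difference was 0.31 among the 125 entries tested in root, where a leaf value was present, beside -0.09 in root. miR528b had 59138 RPM in leaf on day 4, against 233652, 206981 and 269681 RPM on days 0, 1 and 2, a log2 difference of -1.99, beside -1.50 in root. miR408b* had 1298 RPM in leaf on day 4, against 6599, 7697 and 7396 RPM on days 0, 1 and 2 (log2 -2.47, beside -1.74 in root).

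The guide strand of miR408 differed in sign between the organs. miR408b had 180 RPM in leaf on day 4, against 68.1, 126 and 139 RPM on days 0, 1 and 2, above all earlier days, whereas in root it was below all of them. The root difference minus the leaf difference was -2.13 (SE 0.70, limma adjusted p = 0.107), which did not pass. With root and leaf of each day paired, miR408b and miR408 did pass (limma adjusted p = 0.0128 for both), in a fit with 2 residual degrees of freedom that took 1 common trend of the spread for all entries. miR827 had 56.3 RPM in leaf on day 4, against 48.3, 42.7 and 58.2 RPM on days 0, 1 and 2, inside the earlier range, and the root minus leaf difference of 1.32 did not pass either (SE 0.60, limma adjusted p = 0.285). miR827* had 38.9 RPM in leaf on day 4, against 23.4, 26.04 and 30.2 RPM on days 0, 1 and 2, above all 3.

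That test of the difference between organs, fitted over 144 entries in 8 libraries, passed 0 higher (0.0%) and 3 lower (2.08%), with 26 at an unadjusted p under 0.05. miR169i* was 1 of the 3, with a root minus leaf difference of -2.28 (SE 0.50, limma adjusted p = 0.0452). It had 20.4 RPM in leaf on day 4, against 2.22, 1.92 and 2.01 RPM on days 0, 1 and 2, a far wider step than in root. The call ended under 8 of 16 alternatives, among them median-ratio scaling (limma adjusted p = 0.236), leaving out day 1 (limma adjusted p = 0.127) and leaving out day 2 (limma adjusted p = 0.204). With root and leaf of each day paired the limma adjusted p was 0.0053, and over all 16 alternatives it ran from 0.0053 to 0.236. Among the 82 the median day 4 difference was 0.26 in leaf, where a leaf value was present, beside -0.11 in root. A lean to negative root minus leaf differences was thus shared by the middle of the entries, and its cause was not tested. The paired fit passed 12 entries in all, each with a negative root minus leaf difference. Such a sign does not mean a fall in root, since miR169i* was above its earlier range in both organs. The other 2 of the 3, miR160a and miR160d, were not among the 82, being under 2 RPM in root on all 4 days. In leaf miR160d had 28.6 RPM on day 4, against 1.63, 2.23 and 1.13 RPM on days 0, 1 and 2. miR160a had 27.3 RPM in leaf on day 4, against 0.963 and 1.77 RPM on days 0 and 1 and a blank on day 2.

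**Figure D3:**
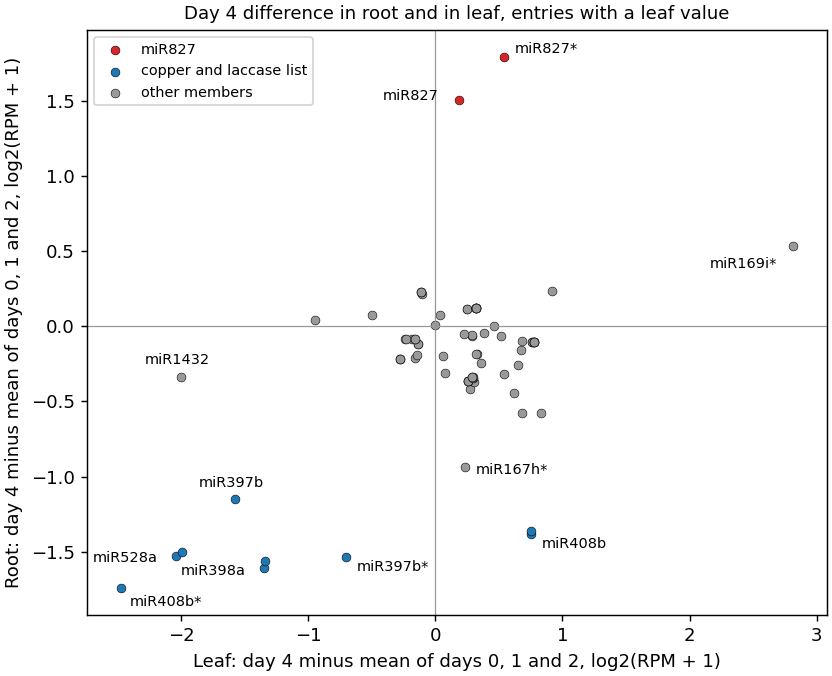
Each point is 1 of the 78 entries with a value in leaf, placed by its log2(RPM + 1) difference, day 4 minus the mean of days 0, 1 and 2, in leaf (horizontal) and in root (vertical), 1 library per organ and day. The copper-associated entries are low in root, and all but miR408 and miR408b are low in leaf too; miR827 is high in root and near 0 in leaf.

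Roots kept at sufficient phosphate have 2 libraries on day 0 and 2 on day 8, so a gap between replicate libraries can be read from them. They were taken from the columns headed as root, although the fold column beside these is named for leaf. Their values are whole numbers whose column names carry a -std suffix that nothing explains and that marks scaled values in the low-phosphate table. They were read as counts, which the files do not settle, and are given here per 1000000 listed miRNA reads, a scale that differs from RPM. For the day 8 libraries the title was followed, although their source label says day 0. Over the 81 entries matched by name, the median absolute log2 difference between replicates was 0.14 on day 8 and 0.16 on day 0, and the widest was 0.64. That gap does not cover the distance to the low-phosphate course, whose day 0 root also came from the sufficient solution. miR159a had 1632 RPM there, against 93.2 and 86.9 per 1000000 listed reads in the day 0 replicates. miR398a had 12.1 RPM, against 36.2 and 39.8, while miR156b was close, with 85095 RPM against 80849 and 74136. The cause was not tested. For the low-phosphate libraries of days 0, 1 and 2 the log2 span, highest minus lowest, was taken. At equal spread a span of 3 libraries is wider than a difference of 2, so these measures are not alike. The span had a median of 0.42 over the 82 entries, beside a median absolute day 4 difference of 0.21. It was wider than 0.64 in 23 entries, 6 of them copper-associated. The span was 1.80 for miR827*, 1.11 for miR408b and 1.08 for miR398a. The low-phosphate difference on day 4 was wider than 0.64 for 12 of the 82 entries. Those 12 are the 11 past the fold rule and miR167h*. For the 11 this follows from the rule itself, which asks for at least 2-fold, so it adds nothing to their count. The day 0 to 8 span at sufficient phosphate covers more growth than the 4 days compared here, and no sufficient-phosphate library of day 4 was used.

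At sufficient phosphate none of the 8 copper-associated entries matched by name had a lower mean on day 8 than on day 0. miR408 was not matched. The log2 differences of the 8 were 0.11 to 0.77, day 8 minus day 0. The range over pairings of replicates crossed 0 for miR398a, miR398b, miR397b*, miR528a and miR528b. miR528b averaged 46752 ± 2319 on day 8 and 42513 ± 9419 on day 0 per 1000000 listed reads (SD, n = 2 each), which overlap. miR408b* averaged 994 ± 22.2 on day 8 and 896 ± 93.1 on day 0. miR827 averaged 19.95 ± 1.53 on day 8 and 19.7 ± 1.74 on day 0, and miR827* averaged 6.44 ± 0.511 on day 8 and 10.2 ± 0.337 on day 0. miR167h* averaged 109 ± 11.95 on day 8 and 204 ± 2.80 on day 0, a log2 difference of -0.90, so it was also lower on day 8 at sufficient phosphate, beyond the spread of these replicates.

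**Figure D4:**
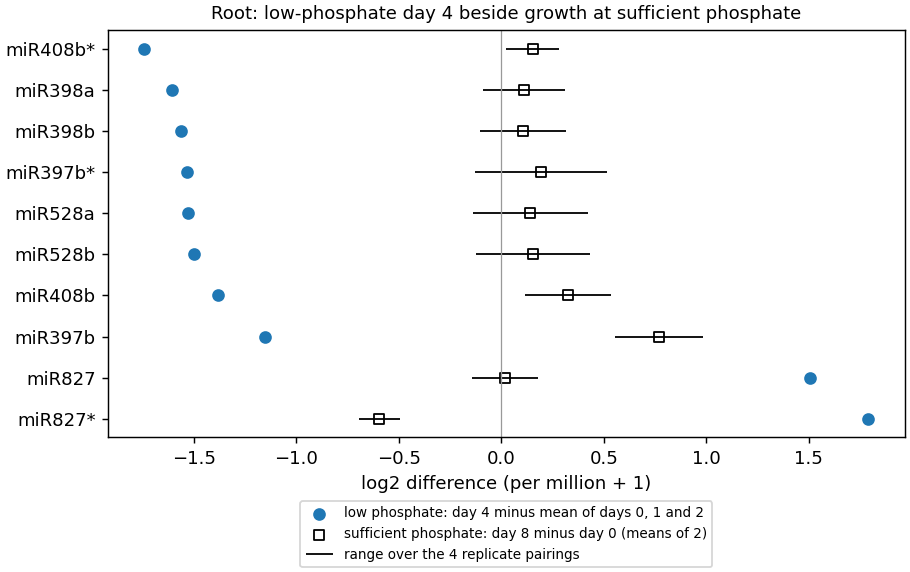
Filled circles show the root log2 difference at low phosphate, day 4 minus the mean of days 0, 1 and 2 (1 library per day, RPM + 1), for the 10 entries past the fold rule that were matched by name. Open squares show root day 8 minus day 0 at sufficient phosphate (means of 2 libraries, per 1000000 listed reads + 1), with lines for the range over the 4 pairings of replicates. For the copper-associated entries the circles lie below 0 and the squares above it, with lines that cross 0 for miR398, miR397b* and miR528.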

How the data were processed

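Small RNA tags of 50 nt were cleaned, annotated and counted per known miRNA by the authors, per the series' design text; the aligner, miRBase release and genome build: not given in the sources used here. The deposited low-phosphate values, a normalized signal, give reads of a miRNA per 1000000 clean reads of its library (RPM). A deposited 0.01 stands for 0 reads, and blanks, under 1, were set to 0.5. In 13 miR399 cells root day 1 repeats day 0, and these were missing in the fit. The deposited sufficient-phosphate values, whole numbers under an unexplained -std suffix, were read as raw counts per miRNA. Library depth was taken from the steps of values under 12 RPM, of which 100% were whole reads within 0.05 reads in each library. The check on recovered reads did not take these columns, so no count test was run. limma 3.58.1 (R 4.3.3, trended, robust) was fitted to log2(RPM + 1) over entries reaching 1 RPM in 2 libraries or more. Benjamini-Hochberg adjustment was over all of these entries. The root fit had 2 residual degrees of freedom, but 1 for miR399e, miR399i and miR399j, whose day 1 cells were missing. limma was also run on simulated data with independent noise of the same size for all entries. Near-identical entries here share reads, so that run does not vouch for the p-values given. The log2(RPM + 1) scale understates changes of rare entries. Near-identical family members share reads. Named were the miR399 and miR827 entries, up to 10 highest and 10 lowest log2 differences outside the range of days 0, 1 and 2, the 10 most abundant, and their other arms; other entries named to illustrate a family or the organs were chosen after their values were seen. The members and lists were chosen with earlier results of these data known. No mature sequences were used here.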

Additional observations from a re-analysis of the deposited data

Results flagged for a closer look

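miR169i* passed the test of a difference between the organs under the same contrast, but in only 8 of 16 alternatives. Its root difference minus its leaf difference was -2.28 on the log2 scale (limma adjusted p = 0.0452, and 0.0053 to 0.236 over the alternatives), with root at 12.1 RPM on day 4, against 5.34 to 10.3 RPM on days 0, 1 and 2, and leaf at 20.4 RPM on day 4, against 1.92 to 2.22 RPM. Each organ has 1 library per day.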

How the results depend on the processing

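The root count passing limma, 0, was 2 (miR408b* and miR397b*, both lower) when fitted on entries of at least 10 RPM, and 0 to 16 with one of days 0, 1 and 2 left out. The 16 (5 higher, 11 lower) came without day 0, with 1 residual degree of freedom and the lone day 4 library assumed to vary like the rest, and included 8 of the 9 copper-associated entries, both miR827 strands and miR167h*. The fold rule count of 14 among 125 was 8 with a pseudocount of 5, 6 at 3-fold, 7 at 2-fold from each earlier day, and 13 to 16 with a day left out. The 9 copper-associated entries were 6 with a pseudocount of 5, 2 at 3-fold, 4 from each earlier day, and 8 to 9 with a day left out. The organ count of 3 was 11 with a pseudocount of 5, 26 with all rows kept, 0 on entries of at least 10 RPM, and 2 to 3 with a day left out. The cause was not tested. Median-ratio scaling moved the median log2 difference of all entries by 0.11, and the fold rule then gave 5 higher and 9 lower, as before, while the entries outside the copper-associated and miR827 families counted as below the earlier range went to 19, against 28, and those above it to 16, against 3 (counts by scaling were added after seeing the data). The 24 named entries kept their sign in all 384 values over 16 alternatives. edgeR on recovered reads was not run. Pairing root and leaf of each day, with day as replicate block, gave 12 in place of 3 (added after seeing the data); the labels do not say that both organs came from the same plants. The root comparison alone has 1 library a day and nothing to pair. miR398 rests on the fewest reads, 38 to 40 on day 4.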

Other observations

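The arms of the miR408b hairpin stood in another ratio in leaf on day 4 than before, unlike in root. The ratio of star to guide in leaf was 7.23 on day 4, against 96.9, 61.3 and 53.2 on days 0, 1 and 2. In root it was 3.31 on day 8. Whether these ratios differ beyond the spread between repeats was not tested, with 1 library each.

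miR1432, the single entry outside the family lists, was inside its earlier range in root, with 47.6 RPM on day 4, against 45.5, 71.7 and 67.5 RPM on days 0, 1 and 2. In leaf it had 8.46 RPM on day 4, against 58.4, 14.6 and 57.8 RPM.

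Across the 78 entries with a value in both organs, the day 4 differences of root and leaf had a Pearson r of 0.51 and a Spearman rho of 0.18, as a description across entries that share reads. Over the 69 entries outside the copper-associated families, r was 0.11.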
